A study of Homo sapiens with 9 samples.

Results

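The genes of 9 surface proteins of activated B cells were followed across BJAB cells with and without an introduced isoform of the receptor TACI: CD80, CD86, CD83, CD40, CD69, ICAM1, CD58, CD44 and CD82. They were taken by gene symbol, and all 9 were found among the 57500 Ensembl genes of the deposited tables. BJAB is an established line of human B cells, given in the labels as a Burkitt lymphoma tumor. The 9 RNA-seq libraries are 3 of parental BJAB cells (control), 3 of BJAB cells stably transfected with the long version of TACI (TACI long) and 3 of BJAB cells stably transfected with the short version (TACI short). All cells are labelled untreated, and the series design states that the transcriptional program was read in resting cells. The titles speak of stable transfection and the design text of transduction, and neither names a promoter, a vector control or the number of clones behind a line. Replicates are not said to come from separate cultures, so p-values cover only how far these libraries differ, and that spread may be technical.

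TACI belongs to the TNF receptor family, is found on B cells, binds BAFF and APRIL and can activate NF-kB. When a B cell is activated it changes the proteins with which it meets T cells: the B7 proteins CD80 and CD86 engage CD28 and CTLA4, CD40 receives the CD40 ligand, and ICAM1 and CD58 bind the integrin LFA-1 and CD2. CD69 is among the first surface proteins to appear after activation, and CD83, CD44 and CD82 are further proteins whose amounts change in activated lymphocytes. Several of these genes are also expressed by macrophages and dendritic cells, so markers of those cells were read in the same libraries.

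Libraries held from 40322136 to 50079203 counts in total. TNFRSF13B, the gene of TACI, stood at 14.6 to 28.8 CPM (the usual per-million scale, a count over the library total) in controls, 691 to 738 CPM in TACI long and 2655 to 2965 CPM in TACI short, so isoform and amount differ together and cannot be told apart. All 10 B-cell markers examined, among them MS4A1, CD79A and PAX5, were above 1 CPM in every library. TACI short replicates 2 and 3 stood apart from the other libraries: 32882 and 32209 genes had at least 1 count in them, against 24307 to 25938 in the other 7. The summed level of 20 myeloid markers was 144 and 139 CPM in these 2 libraries, 38.5 CPM in TACI short replicate 1, 22 to 32.8 CPM in controls and 24.9 to 40.2 CPM in TACI long. The highest myeloid marker was CSF1R, at 57.8 CPM in TACI short replicate 2, while C1QB, C1QC and S100A8 had no count in any library. The tests of the 9 genes and of the gene lists were therefore also run without these 2 libraries, and no call of the 9 genes in TACI short against control was lost. In bulk RNA, fewer cells of a type and less RNA per cell cannot be told apart.

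Promoter sequence was at hand for 7 of the 9 genes (RefSeq, GRCh38.p14). The stretches below are shown because NF-kB is known to act on several of these genes and because CD80 and CD86, close relatives in function, behaved differently. In the 250 bases before each RefSeq start, 5 short motifs were searched on both strands, and the palindromic NF-kB form GGAANTTCC was found in ICAM1 and, at 1 of 2 RefSeq starts, in CD83. It is in 0.826% of 35097 such windows over all genes. The matched letters are in capitals, and both stretches lie in exons of longer gene models in the deposited annotation. The ICAM1 stretch is chr19:10270924-10270953 (plus strand) and the CD83 stretch is chr6:14117712-14117741 (plus strand).
ICAM1: gctttagcttGGAAATTCCggagctgaagc
CD83: tggcgcgcagGGAAGTTCCcgaacgcgcgg

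The 250 bases before the RefSeq start of CD80 (chr3:119559615-119559864, minus strand) and before the upstream start of CD86 (chr3:122055112-122055361, plus strand) held none of the motifs and so carry no capitals. These 2 windows differ in base composition, with 56% G and C in CD80 and 34% in CD86. The window before the other RefSeq start of CD86, not printed, had 52% and held 3 matches to the looser NF-kB form given below. Of these matches, 2 overlap each other, shifted by 1 base.
CD80: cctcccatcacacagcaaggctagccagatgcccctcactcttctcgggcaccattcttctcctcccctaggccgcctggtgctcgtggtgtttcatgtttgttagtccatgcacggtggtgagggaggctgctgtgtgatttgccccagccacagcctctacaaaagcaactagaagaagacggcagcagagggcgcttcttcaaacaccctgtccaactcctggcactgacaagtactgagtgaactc
CD86: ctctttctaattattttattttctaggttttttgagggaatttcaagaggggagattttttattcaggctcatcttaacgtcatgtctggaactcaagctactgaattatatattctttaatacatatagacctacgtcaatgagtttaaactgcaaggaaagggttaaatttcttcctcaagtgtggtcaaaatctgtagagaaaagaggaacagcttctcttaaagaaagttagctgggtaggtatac

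The other motifs were a looser half-spaced NF-kB form, which 54.4% of all windows hold and 2 of whose matches overlap the palindromic match in CD83, the AP-1 site TGANTCA (6.57% of windows), the EGR site GCGNGGGCG (8.41%) and TATAAA (10.7%). The looser form was found in ICAM1, CD58, CD44, CD82 and at 1 start each of CD83 and CD86. The EGR form was found 3 times before the same CD83 start, TATAAA before ICAM1 and before the other CD83 start, and TGANTCA before none of the 7 genes. A match says only that the letters are there.

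Across the 9 libraries the surface marker genes fell into several patterns. CD80, ICAM1, CD58 and CD40 were between 3.26-fold (CD40) and 23.4-fold (CD80) higher in TACI short than in control and within 1.5-fold of control in TACI long. CD69 was almost lost in TACI long, CD82 was higher in both lines, CD83 moved in opposite directions in them and CD86 hardly changed. CD44 was low everywhere except in TACI short replicates 2 and 3.

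**Figure D1:**
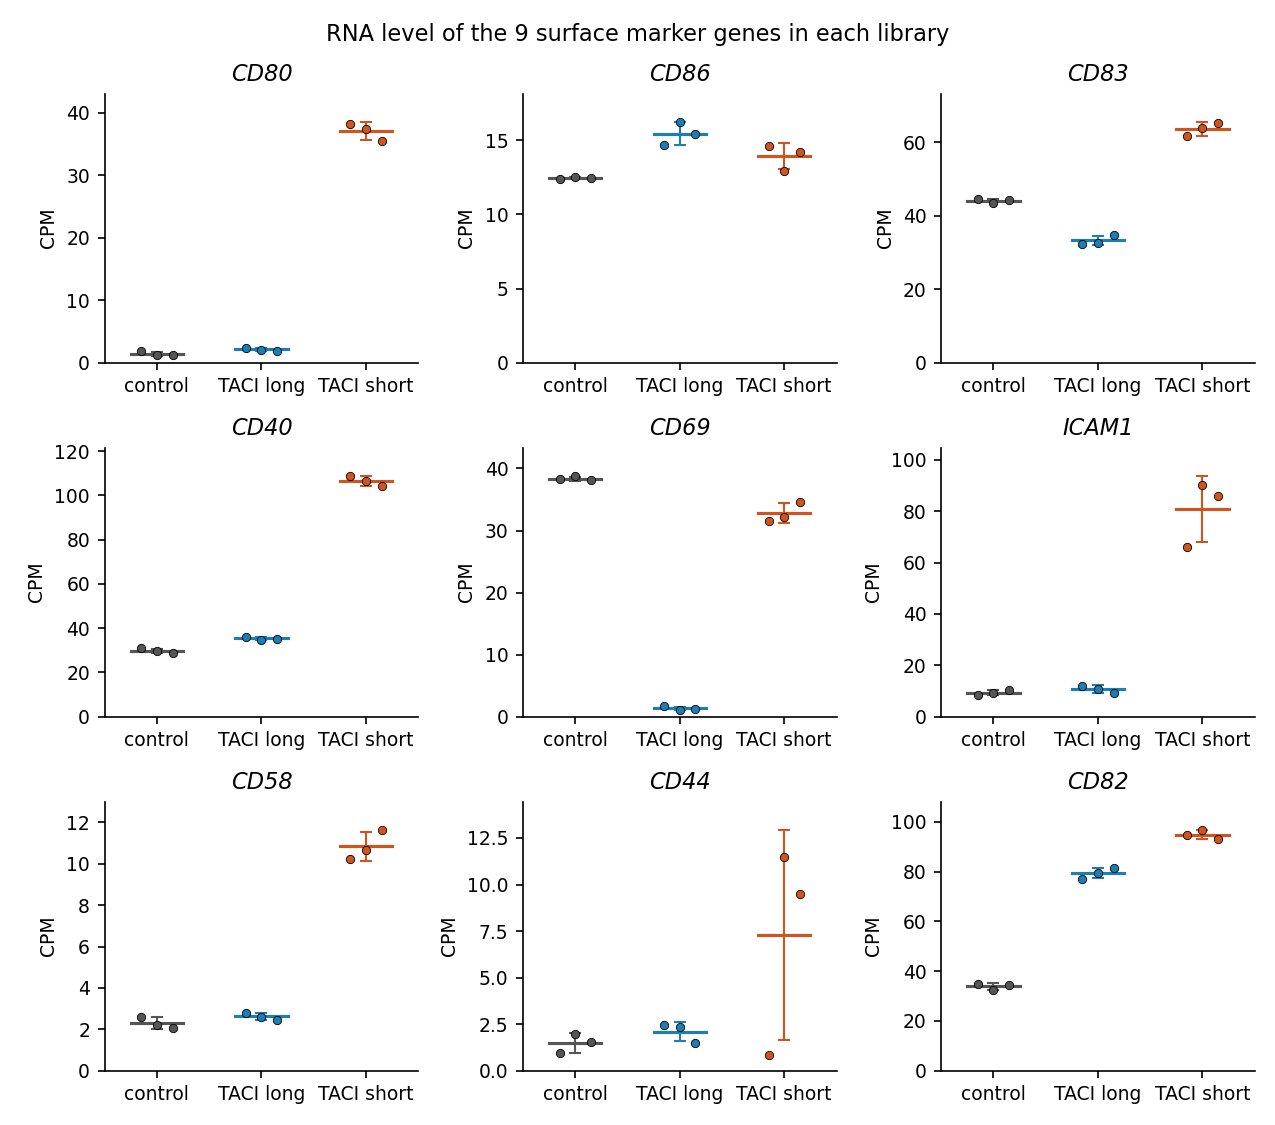
RNA level of each of the 9 genes in CPM (vertical axes starting at 0), with 1 point per library, the group mean as a horizontal line and the SD (n = 3) as a bar. CD69 lies below 2 CPM in the 3 TACI long libraries, and CD80 above 35 CPM in the 3 TACI short libraries only.

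All 9 genes passed the filter on low counts. In TACI long against control, 4 of the 9 were higher and 2 lower at an adjusted p under 0.05 (edgeR quasi-likelihood test, Benjamini-Hochberg adjusted over 16672 genes), where 51.1% of all genes were called, 25.2% higher and 25.9% lower. In TACI short against control, 6 were higher and 1 lower, where 62.6% of all genes were called, 31.5% higher and 31.1% lower. In TACI short against TACI long, 7 were higher and 1 lower, where 68.8% of all genes were called, 35.2% higher and 33.6% lower. The median log2 fold change of the 9 genes was 0.25, 1.70 and 1.64 in these comparisons, against -0.0029, 0.026 and 0.046 over all genes. Both comparisons with control use the same 3 control libraries. Since so many genes differed between these lines, the sizes below carry more than the calls.

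**Figure D2:**
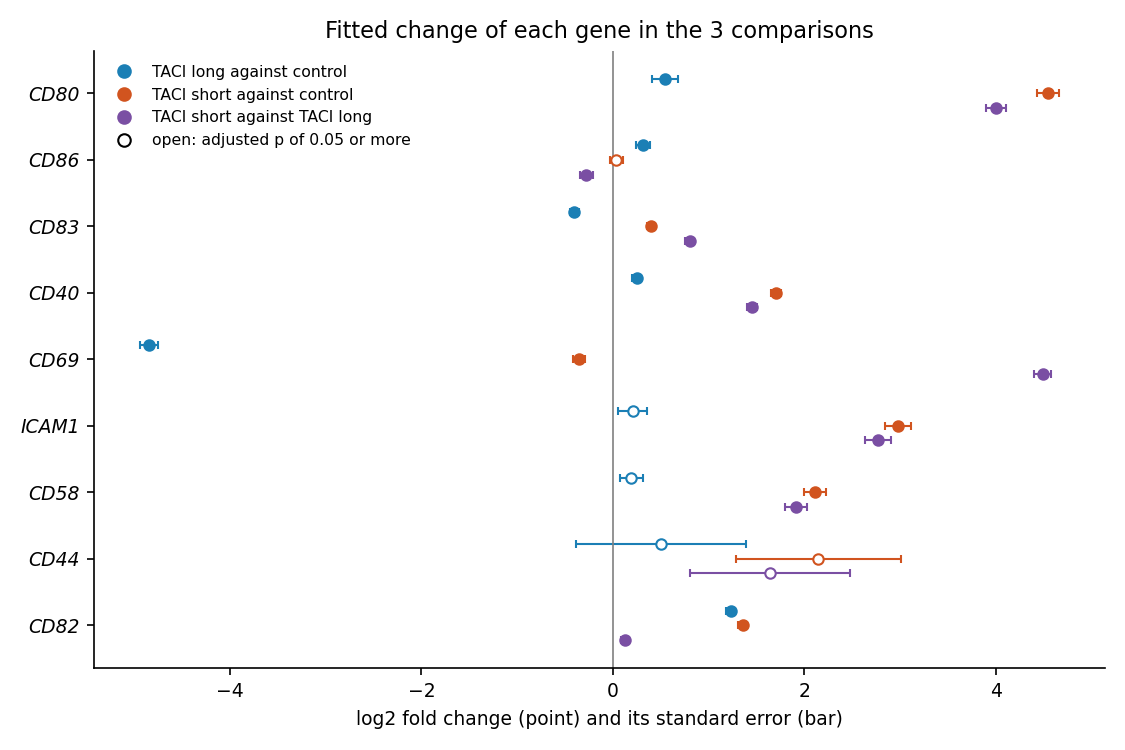
Log2 fold change (horizontal axis) with its standard error for each gene in the 3 comparisons, from the edgeR fit over all 9 libraries; open points have an adjusted p of 0.05 or more. CD69 at -4.85 in TACI long and CD80 at 4.55 in TACI short lie farthest from 0, and the bars of CD44 are the widest.

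The B7 ligands CD80 and CD86 give the costimulatory signal to T cells through CD28. CD80 (ENSG00000121594, minus strand of chromosome 3, 119524293 to 119559602 in hg38; reads over exons were counted for all genes) stood at 1.83, 1.26 and 1.24 CPM in controls, 2.34, 2.06 and 1.92 CPM in TACI long and 38.2, 37.4 and 35.5 CPM in TACI short. Every TACI short library was far above every other library, and the TACI long libraries lay just above the controls, without overlap. CD80 was 23.4-fold higher in TACI short than in control (log2 fold change 4.55 ± 0.11 SE, edgeR adjusted p = 5.02e-16) and 1.46-fold higher in TACI long (0.54 ± 0.14, edgeR adjusted p = 0.00268). TIMMDC1, a gene on the other strand, shares 798 of the 3201 exon bases of CD80, and Nextera libraries do not mark strand. TIMMDC1 was measured at 78.5 to 78.8 CPM in TACI short and 85.2 to 90.8 CPM in the other groups, so TIMMDC1 was lowest where CD80 was highest.

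CD86 (ENSG00000114013, chromosome 3, 122055366 to 122121139, plus strand) had 12.4, 12.5 and 12.5 CPM in controls, 14.7, 16.2 and 15.4 CPM in TACI long and 14.6, 12.9 and 14.2 CPM in TACI short. The TACI long libraries were all above the rest. It rose 1.24-fold in TACI long (log2 fold change 0.31 ± 0.07, edgeR adjusted p = 0.000618) and gave -0.28 in TACI short against TACI long (edgeR adjusted p = 0.00126). Against control the TACI short value was 0.04 ± 0.07 and did not pass the test (edgeR adjusted p = 0.659). With library totals in place of TMM factors it was 0.17 at an edgeR adjusted p = 0.0301, a scaling that also moved the median of all genes from 0.026 to 0.155, so CD86 lay near that median under both scalings. The TACI short value against TACI long missed the threshold without TACI short replicates 2 and 3 (-0.18, edgeR adjusted p = 0.0587).

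Per kilobase of exon the order of the 2 B7 genes turned over. CD80 stood at 0.451 ± 0.103 FPKM (CPM per kilobase of exon; SD, n = 3) and CD86 at 3.62 ± 0.0145 FPKM in controls, and in TACI short CD80 stood at 11.6 ± 0.440 FPKM and CD86 at 4.06 ± 0.256 FPKM. The ratio of CD80 to CD86 was 0.158, 0.108 and 0.107 in the controls, 0.171, 0.136 and 0.134 in TACI long and 2.80, 3.10 and 2.67 in TACI short. CD86 RNA was thus the more abundant in 6 libraries and CD80 RNA in the 3 of TACI short; the ratio itself was not tested. CD28 and CTLA4, the receptors of these ligands, had at most 2 counts in any library.

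**Figure D3:**
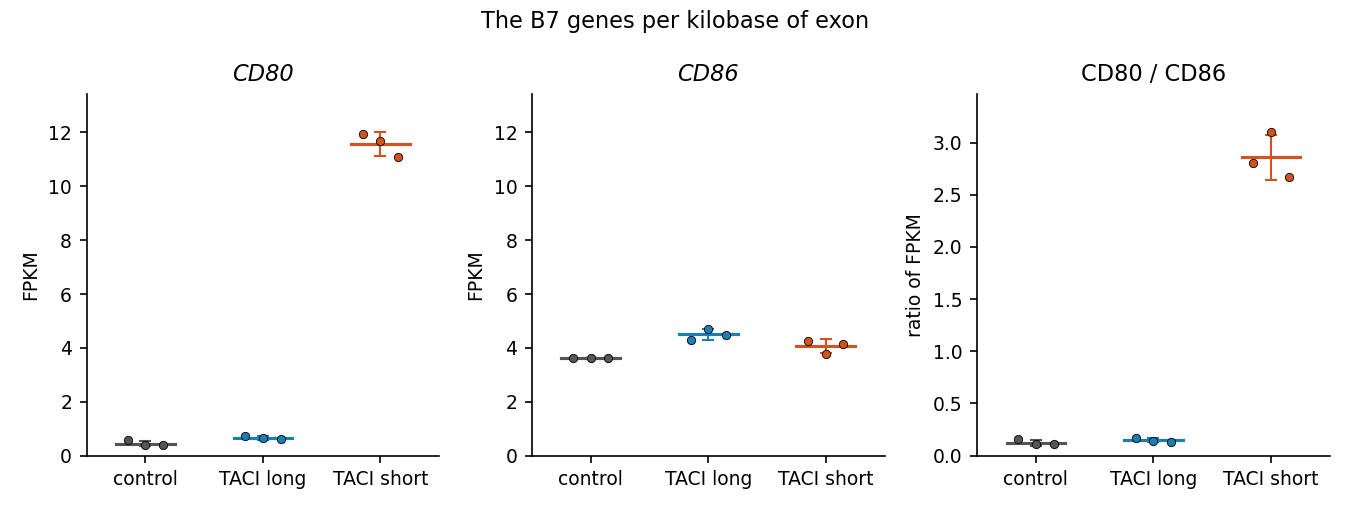
CD80 and CD86 in FPKM on 1 common scale and the ratio of the former to the latter, with 1 point per library, group means (lines) and SD (bars, n = 3). The ratio is below 0.2 in the control and TACI long libraries and between 2.67 and 3.10 in TACI short.

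CD83 encodes an immunoglobulin-type protein of activated B cells and mature dendritic cells that protects MHC class II and CD86 from degradation. The gene (ENSG00000112149, chromosome 6, 14117256 to 14136918, plus strand) had 44.6, 43.6 and 44.1 CPM in controls, 32.4, 32.7 and 34.8 CPM in TACI long and 61.6, 64 and 65.2 CPM in TACI short. The 3 groups did not overlap, with TACI long lowest and TACI short highest. The fall in TACI long was 1.32-fold (log2 fold change -0.40 ± 0.05, edgeR adjusted p = 1.5e-07) and the rise in TACI short was 1.32-fold (0.40 ± 0.05, edgeR adjusted p = 8.07e-08). TACI short and TACI long differed 1.75-fold (0.80 ± 0.05, edgeR adjusted p = 4.46e-13). CD83 was the only one of the 9 genes that was called in opposite directions against control.

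CD40, the receptor through which helper T cells activate B cells, was the most abundant of the 9 genes in TACI short. The gene (ENSG00000101017, chromosome 20, 46118272 to 46129863, plus strand) had 30.9, 29.8 and 29 CPM in controls, 36.2, 34.9 and 35.3 CPM in TACI long and 109, 106 and 104 CPM in TACI short. The groups did not overlap, with TACI short far above the others. CD40 rose 3.26-fold in TACI short (log2 fold change 1.70 ± 0.05, edgeR adjusted p = 1.85e-18) and 1.19-fold in TACI long (0.25 ± 0.05, edgeR adjusted p = 0.000196). Its ligand gene CD40LG had a group mean of at most 0.0232 CPM.

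CD69, a C-type lectin that appears early after activation and holds lymphocytes in tissue by removing the receptor S1PR1 from the surface, showed the deepest fall. The gene (ENSG00000110848, chromosome 12, 9752486 to 9760901, minus strand) stood at 38.3, 38.7 and 38.1 CPM in controls, 1.68, 1.14 and 1.18 CPM in TACI long and 31.6, 32.1 and 34.7 CPM in TACI short. TACI long kept 174 counts over its 3 libraries, against 5224 in controls and 4436 in TACI short. This made CD69 28.8-fold lower in TACI long (log2 fold change -4.85 ± 0.09, edgeR adjusted p = 1.71e-21). TACI short gave -0.35 ± 0.06 against control (edgeR adjusted p = 3.29e-05), with no overlap of the libraries, and 22.5-fold higher than TACI long. Per kilobase of exon CD69 stood at 13.5 FPKM in controls, 0.471 FPKM in TACI long and 11.6 FPKM in TACI short.

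ICAM1 and CD58 are adhesion ligands that hold the contact between a B cell and a T cell together. ICAM1 (ENSG00000090339, chromosome 19, 10270835 to 10286615, plus strand), whose upstream stretch with GGAAATTCC is printed above, had 8.44, 9.39 and 10.2 CPM in controls, 12.1, 10.9 and 9.29 CPM in TACI long and 66.2, 90.3 and 85.9 CPM in TACI short. Control and TACI long libraries overlapped, and all TACI short libraries were above 60 CPM. ICAM1 rose 7.89-fold in TACI short (log2 fold change 2.98 ± 0.14, edgeR adjusted p = 8.74e-07). In TACI long the value was 0.21 ± 0.15 (edgeR adjusted p = 0.319). It passed the threshold there without a filter on low counts (edgeR adjusted p = 0.0186) or without TACI short replicate 1 (edgeR adjusted p = 0.0298). ICAM1 was 1.33-fold higher in the mean of TACI short replicates 2 and 3 than in replicate 1, where the median of all tested genes was 0.997. Without replicates 2 and 3 the log2 fold change against control was 2.73, and the part of the myeloid RNA in the difference was not tested. ICAM4-AS1 and LIMASI, on the other strand over exons of ICAM1, had 43 and 49 counts over all libraries, against 13569 for ICAM1.

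CD58 (ENSG00000116815, chromosome 1, 116514535 to 116571039, minus strand), the ligand of CD2, had 2.61, 2.2 and 2.08 CPM in controls, 2.81, 2.61 and 2.46 CPM in TACI long and 10.2, 10.7 and 11.6 CPM in TACI short. Only the TACI short libraries stood apart. The rise in TACI short was 4.31-fold (log2 fold change 2.11 ± 0.11, edgeR adjusted p = 2.3e-13), and TACI long gave 0.19 ± 0.12 (edgeR adjusted p = 0.191).

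CD44, the hyaluronan receptor, was the lowest of the 9 genes per kilobase in every group and the only one without a call in any comparison. The gene (ENSG00000026508, chromosome 11, 35138870 to 35232402, plus strand) had 0.935, 1.95 and 1.56 CPM in controls, 2.43, 2.35 and 1.51 CPM in TACI long and 0.855, 11.5 and 9.46 CPM in TACI short. TACI short replicate 1 was the lowest of all 9 libraries, and replicates 2 and 3 were the highest. The mean of those 2 was 12.25-fold that of replicate 1, while the other 8 genes were between 0.929-fold and 1.33-fold its value. The summed myeloid markers were 3.68-fold, a sum in which CSF1R, at 20.3 CPM in replicate 1 already, weighs most. The 10 single myeloid markers with at least 10 counts in replicate 1 were between 1.39-fold (CD33) and 14.8-fold (CD163) its value, with TYROBP at 12-fold and FCER1G at 10.54-fold, so CD44 lay within their range. The part of myeloid RNA in CD44 was not tested. The fitted log2 fold change in TACI short was 2.15 ± 0.86 (edgeR adjusted p = 0.0702); DESeq2 called it (adjusted p = 0.0158). Without TACI short replicate 1 the value was 2.66 (edgeR adjusted p = 3.26e-07), and without replicates 2 and 3 it was -0.88 (edgeR adjusted p = 0.081). Against TACI long it went from 1.64 to 2.15 (edgeR adjusted p = 1.3e-06) and to -1.39 (edgeR adjusted p = 0.0064) under the same omissions. The direction of CD44 in TACI short was thus set by which libraries were used.

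**Figure D4:**
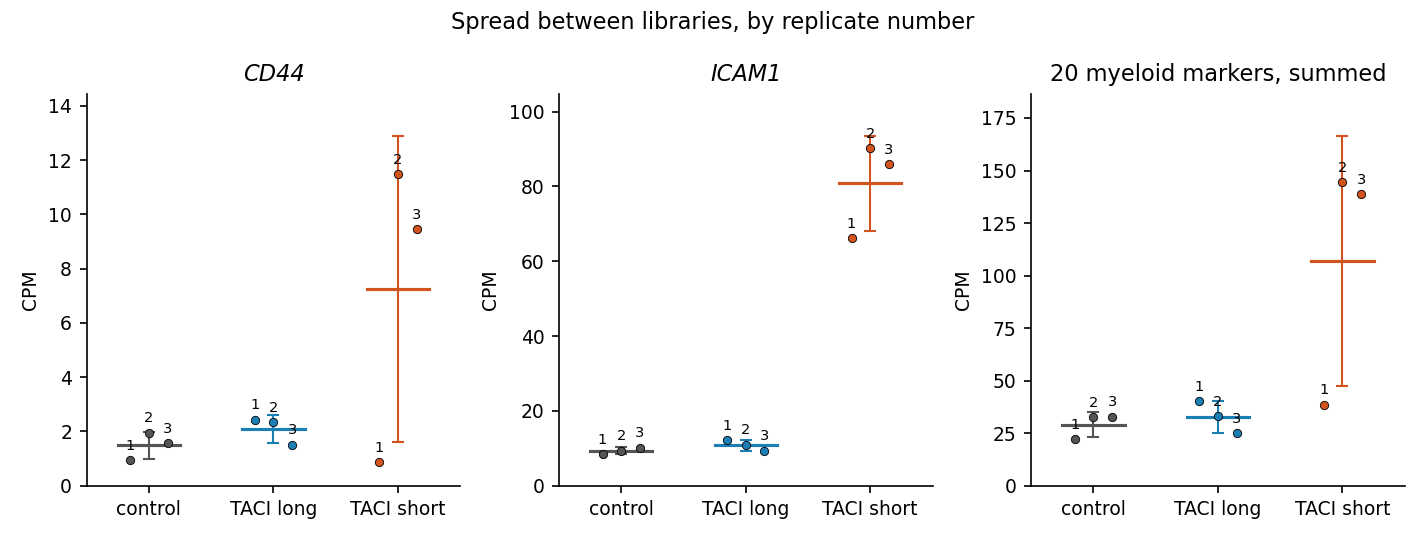
CD44, ICAM1 and the sum of 20 myeloid markers in CPM, with 1 point per library labelled by its replicate number, group means (lines) and SD (bars, n = 3). TACI short replicates 2 and 3 lie well above replicate 1 for CD44 and for the myeloid sum, and all 3 lie above the other groups for ICAM1.

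CD82, a tetraspanin that organises receptors and integrins in the membrane, was the one gene that rose by a similar amount in both lines. The gene (ENSG00000085117, chromosome 11, 44564427 to 44620363, plus strand) had 34.6, 32.3 and 34.6 CPM in controls, 77.2, 79.6 and 81.5 CPM in TACI long and 94.8, 96.6 and 93.3 CPM in TACI short. The groups did not overlap on this scale. CD82 rose 2.35-fold in TACI long (log2 fold change 1.23 ± 0.05, edgeR adjusted p = 4.13e-16) and 2.56-fold in TACI short (1.36 ± 0.05, edgeR adjusted p = 7.33e-17). The difference between the lines was small, 0.13 ± 0.04 (edgeR adjusted p = 0.016). It missed the threshold without any single control or TACI long library, without TACI short replicate 1 or without a filter on low counts (edgeR adjusted p between 0.0547 and 0.187).

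Levels can be ordered between genes only per kilobase of exon. In controls the order was CD83 (17.5 FPKM), CD69, CD40, CD82, CD86, ICAM1, CD58, CD80 and CD44 (0.147 FPKM), and no neighbours overlapped. In TACI long CD82 came first (19.6 FPKM) and the next 2, CD40 and CD83, overlapped. In TACI short CD40 came first (42.1 FPKM), CD82 and ICAM1 overlapped, as did CD69 and CD80, and only CD44 lay below CD86.

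Other genes of the same processes were examined in 6 lists of 121 genes, of which 98 were tested; the lists are given with the methods. In TACI long 25 of these were higher and 43 lower (median log2 fold change -0.14), in TACI short 49 and 22 (0.36), and in TACI short against TACI long 55 and 18 (0.68). Over all genes 25.2% were higher and 25.9% lower in TACI long, and 31.5% and 31.1% in TACI short. In TACI short against TACI long these shares were 35.2% and 33.6%. Without TACI short replicates 2 and 3, 45 of 100 tested were higher and 21 lower than in control (0.161), and 51 and 18 against TACI long (0.275). Among 12 tested ligands and receptors of costimulation, 3 rose and 5 fell in TACI long and 6 rose and 1 fell in TACI short. CD70, the ligand of CD27, had 3.26, 2.73 and 3.02 CPM in controls, 0.898, 1.40 and 0.973 CPM in TACI long and 108, 100.1 and 97.4 CPM in TACI short. TNFSF9, the ligand of the costimulatory receptor 4-1BB, showed the same order, with a 2.48-fold fall in TACI long and a 2.67-fold rise in TACI short. VSIR, an inhibitory relative of the B7 proteins, rose in both lines, 1.80-fold and 1.40-fold, and TNFRSF14, the receptor of LIGHT and BTLA, fell 3.34-fold in TACI long and rose 1.98-fold in TACI short. ICOSLG, a B7 relative that binds ICOS, fell 2.75-fold in TACI long, and its TACI short value was -0.07 (edgeR adjusted p = 0.585). The median of this list in TACI short was 1.42 with all libraries and 0.301 without TACI short replicates 2 and 3, where 13 were tested.

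Among 13 other adhesion genes, 2 rose and 5 fell in TACI long (25.2% and 25.9% of all genes). In TACI short 10 rose and none fell (31.5% and 31.1% of all genes). Their median log2 fold change in TACI short was 0.558 with all libraries and 0.324 without TACI short replicates 2 and 3. CD48, a relative of CD58, fell 2.60-fold in TACI long from 61.6 ± 2.24 to 23.6 ± 1.60 CPM (SD, n = 3) and was 81.2 ± 4.44 CPM in TACI short. ICAM2, a relative of ICAM1, fell 1.72-fold in TACI long and rose 1.32-fold in TACI short. SPN, a sialylated surface protein of leukocytes, likewise fell 1.46-fold and rose 1.32-fold. In TACI short ICAM3 rose 1.47-fold, CD99 1.49-fold and ALCAM, the ligand of CD6, 1.54-fold. CD47, the ligand of SIRPA, rose 1.29-fold in TACI long. ITGB2, the shared chain of the ICAM1-binding integrins, had 451 to 472 CPM in controls, 283 to 307 CPM in TACI long and 298, 522 and 508 CPM in TACI short. Its fall in TACI long (-0.65, edgeR adjusted p = 0.0305) missed the threshold without any single control or TACI long library (edgeR adjusted p between 0.0654 and 0.0886), with the replicate number as a block (0.0615) and without a filter (0.0825).

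Of 17 other tetraspanins, the family of CD82, 5 rose and 7 fell in TACI long (25.2% and 25.9% of all genes). In TACI short 10 rose and 4 fell (31.5% and 31.1% of all genes). TSPAN13 also rose in both lines, 3.33-fold in TACI long and 2.84-fold in TACI short. CD9 rose 3.58-fold in TACI short, from 11.9 ± 0.431 to 46.4 ± 0.856 CPM (SD, n = 3), and was 0.03 in TACI long on the log2 scale (edgeR adjusted p = 0.693). TSPAN18 rose in both lines, 1.75-fold and 5.13-fold, and CD53, a tetraspanin of leukocytes, fell in both, 2.00-fold and 1.38-fold. TSPAN4 rose 2.80-fold in TACI short, and TSPAN15 fell 1.70-fold in TACI long and was 2.94-fold higher in TACI short than in TACI long. CD81, a partner in the B-cell coreceptor, was 1.08-fold higher in TACI short than in TACI long, a call lost in 8 alternatives.

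Other surface markers of activation did not follow a single direction. Of 18 tested, 5 rose and 10 fell in TACI long (25.2% and 25.9% of all genes). In TACI short 6 rose and 7 fell, near the shares of all genes (31.5% and 31.1%). CLEC2B, which encodes another C-type lectin, fell 6.88-fold in TACI long and gave 0.65 on the log2 scale in TACI short. IL21R, the receptor of a helper T-cell cytokine, fell 3.26-fold in TACI long and was -0.08 in TACI short (edgeR adjusted p = 0.112). TFRC, the transferrin receptor of dividing cells, fell in both lines, by 1.73-fold and 1.90-fold, and so did SLAMF1, by 1.65-fold and 1.60-fold. FAS, a death receptor, rose 1.49-fold in TACI short, and CD84, a SLAM family receptor, rose there from 8.17 to 17.9 CPM. BSG was 1.37-fold lower in TACI short than in TACI long.

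Partners and regulators of the 9 proteins had 6 of 16 tested genes higher and 4 lower in TACI long, and the same counts in TACI short. The shares of all genes were 25.2% and 25.9% in TACI long and 31.5% and 31.1% in TACI short. TRAF1, a CD40 adaptor, was 1.44-fold lower in TACI long and 1.91-fold higher in TACI short, TRAF3, a brake on CD40 and non-canonical NF-kB signalling, was 1.69-fold higher in TACI short, and TRAF5 was lower in both. S1PR1, the partner of CD69, had group means of 0.0864 CPM or less, while its relative S1PR2 rose 1.32-fold in TACI long to 158 ± 4.71 CPM. CD74, a partner of CD44 and chaperone of MHC class II, rose 1.49-fold in TACI short. EZR, which links CD44 and other membrane proteins to actin, rose 1.39-fold in TACI long, and HYAL2, a hyaluronidase, was 1.502-fold lower in TACI short than in TACI long.

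Among 22 tested transcription factors known to act on such genes, 4 rose and 12 fell in TACI long (25.2% and 25.9% of all genes). In TACI short 11 rose and 6 fell (31.5% and 31.1% of all genes). In TACI short against TACI long 16 were higher and 4 lower (35.2% and 33.6% of all genes). EGR1, an immediate early factor, stood at 811 to 864 CPM in controls, 33.1 to 38.3 CPM in TACI long and 431 to 466 CPM in TACI short, so its order over the groups was that of CD69. FOS, a subunit of AP-1, fell 11.7-fold in TACI long and 2.75-fold in TACI short. Of the other factors, CEBPB fell 2.76-fold and JUND 1.98-fold in TACI long, and JUNB was 3.10-fold higher in TACI short than in TACI long. NFKB2, which encodes the precursor of the non-canonical NF-kB subunit p52, rose 3.68-fold in TACI short, its partner RELB 2.64-fold and the coactivator BCL3 8.51-fold. In TACI long NFKB2 gave -0.43 on the log2 scale (edgeR adjusted p = 8.83e-08), and RELB and BCL3 gave 0.08 and 0.03 (edgeR adjusted p = 0.18 and 0.841). All 3 were thus highest in TACI short, as were CD80, ICAM1, CD58 and CD40, in libraries where most genes differed between the lines.

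**Figure D5:**
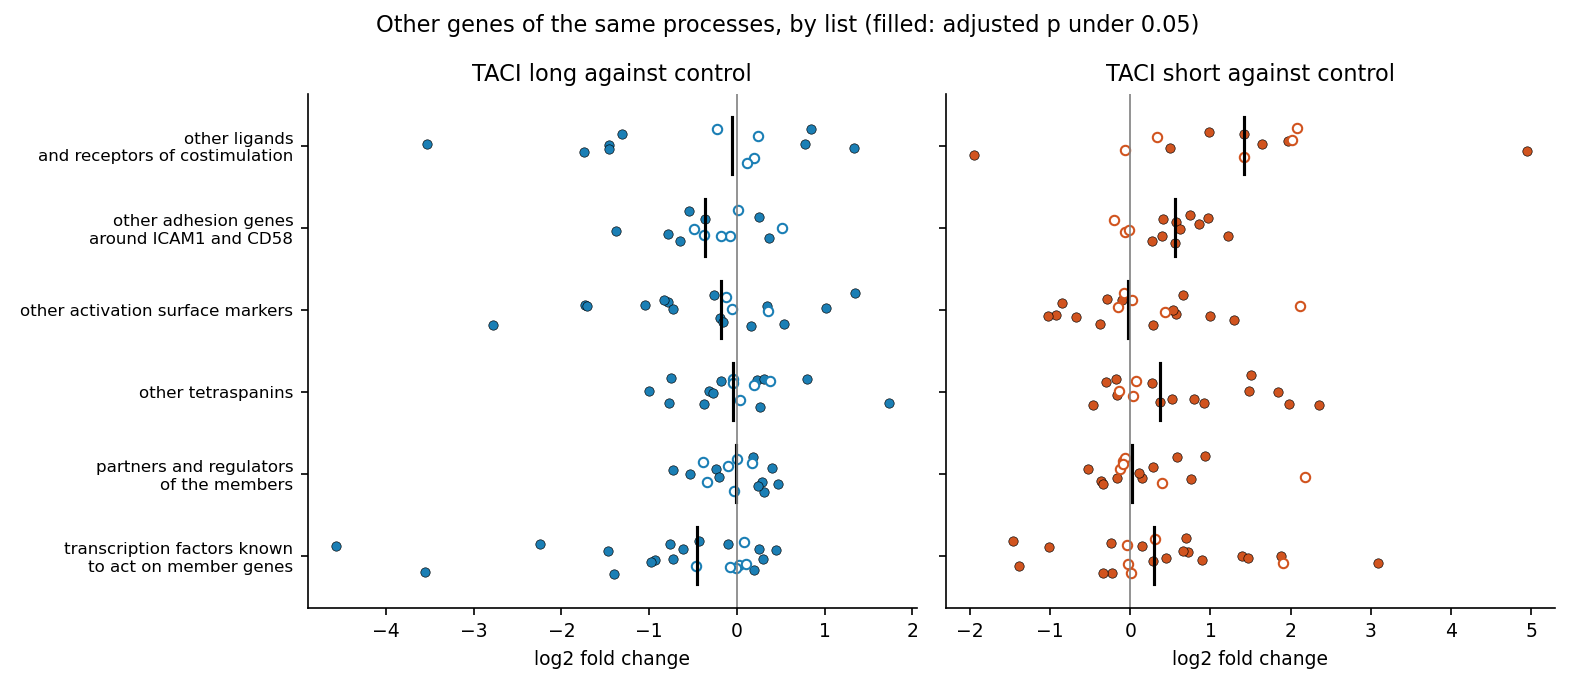
Log2 fold change (horizontal axis) of every tested gene in the 6 lists, in TACI long and in TACI short against the same controls, with the median of each list as a black line; filled points have an adjusted p under 0.05. In TACI short the adhesion genes lie mostly to the right of 0 (10 of 13 higher, none lower, against 31.5% and 31.1% of all genes). Their median there is 0.558, and it was 0.324 without TACI short replicates 2 and 3. In TACI long the transcription factors lie mostly to the left (4 of 22 higher, 12 lower, against 25.2% and 25.9% of all genes).

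The genes whose pattern over the 9 libraries was closest to each of the 9 were found by the Euclidean distance of centred log2 CPM among 11131 other protein-coding genes. For CD69 they were MRI1 (distance 0.725), ZNF836 (1.00) and RAB4A (1.18); MRI1 went from 7.15 CPM in controls to 0.199 in TACI long and 8.02 in TACI short. For ICAM1 they were CNR1 (0.475), BIRC3 (0.519) and NFAM1 (0.602), and BIRC3, an inhibitor of apoptosis induced by NF-kB, had 81.6, 89.2 and 705 CPM in control, TACI long and TACI short. CD40 was closest to NECAP2 (0.278), LACTB and RIMS3, CD58 to ADPRH (0.358), CDK18 and APOBEC3B, and CD83 to HK1 (0.121), SUMF2 and ZBTB7B. CD80 was closest to HLA-DQA2 (0.893), whose reads cannot be cleanly told from those of its near-identical copy HLA-DQA1, RUBCNL and TP63, CD86 to TMEM168 (0.0799), DPP8 and PIGX, and CD82 to SNPH (0.253), GFY and GPC5. HLA-DQA2 had mean levels of 0.0656 CPM in controls and 0.0984 CPM in TACI long, and TP63 had 0.00725 and 0.00773 CPM. ZNF836, near CD69, had 0.0231 CPM in TACI long. At such levels a distance rests on few counts. The genes closest to CD44 were ACTN1 (0.279), SPRY2 and FUCA2. ACTN1 had 2.46, 5.12 and 4.18 CPM in controls, 5.93, 5.07 and 3.55 CPM in TACI long and 2.25, 27.5 and 24.7 CPM in TACI short. Its likeness to CD44 thus follows the split within TACI short. Within the other groups both genes, and the myeloid sum, were also lowest in control replicate 1 and TACI long replicate 3. These distances were computed over all 9 libraries only.

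Markers of other cell types were read in the same libraries. Of 13 T and NK cell markers, TRAC was the highest, at 49.5 to 53.3 CPM in controls, 11.7 to 13.4 CPM in TACI long and 21.3 to 24.7 CPM in TACI short, while CD3D and CD2 had at most 1 count in any library. Of 12 dendritic cell markers, ITGAX reached 53.7 CPM in TACI short replicate 2, and CLEC9A and XCR1 had no count outside TACI short replicates 2 and 3. Of 10 epithelial and fibroblast markers, EPCAM was the highest (73.4 to 116 CPM over all libraries) and KRT18 had at most 1 count. COL1A1 had 1.5 to 2.6 CPM in controls, 1.53 to 2.55 CPM in TACI long and 3.24, 11 and 10.2 CPM in TACI short. COL1A2 had 0.913 to 1.44 CPM, 0.51 to 0.993 CPM and 0.653, 3.99 and 4.11 CPM in the same order. Both were thus highest in TACI short replicates 2 and 3. DCN showed no such split, at 2.43, 2.01 and 2.44 CPM in TACI short. Of 11 tested myeloid markers, 6 were higher and 1 lower in TACI short than in control (31.5% and 31.1% of all genes). Their median log2 fold change was 1.76 with all libraries and -0.167 without TACI short replicates 2 and 3. Of the dendritic cell markers 7 were tested, with 3 higher and 2 lower in TACI short than in control (median log2 fold change 2.05). Without these 2 libraries 8 were tested, with a median of -0.0865. CCL22, a chemokine, had 1.35 to 1.57 CPM in controls, 0.162 to 0.449 CPM in TACI long and 14.8, 13.8 and 12.9 CPM in TACI short, and ITGAX had 4.17 to 7.46, 3.92 to 7.40 and 24.8 to 53.7 CPM. Both were thus high in all 3 TACI short libraries, as were CD80, CD40, CD58 and ICAM1. CCL17 was too, but at no more than 0.27 CPM. Other dendritic cell markers differed from this. The mean of CD1C was 6.52 CPM in controls and 4.34 CPM in TACI short, and that of CD1A was 2.25 and 0.683 CPM. FSCN1 had 2.11 to 4.48 CPM in controls and 2.41, 25.2 and 24.3 CPM in TACI short. The part of myeloid, dendritic cell or fibroblast RNA in these results was not tested. CD80, CD40, CD58, CD83, CD69 and CD82 had a mean in TACI short replicates 2 and 3 between 0.953-fold and 1.09-fold that of replicate 1, and CD80, CD40, CD58, ICAM1, CD82 and CD83 were called higher in TACI short also without these 2 libraries (log2 fold changes of 4.63, 1.77, 2.06, 2.73, 1.40 and 0.39).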

How the data were processed

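Polyadenylated RNA of sorted cells was sequenced from Nextera XT libraries, per the labels' protocols, which do not keep the strand. The authors deposited unnormalized counts, 1 table per library. The submitters' processing notes name FastQC, STAR 2.4.0h, HTSeq and hg38; the header columns have the featureCounts layout. Annotation release, strand setting and filters are not given in the sources used here. Symbols came from Ensembl IDs (56898 of 57500 in GENCODE 29).

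CPM divides a count by the library total, and FPKM also by the exon length in the files. Folds and tests come from edgeR 4.0.16 in R 4.3.3: filterByExpr (minimum count 10, minimum total 15), TMM factors, a robust quasi-likelihood fit over all 9 libraries (6 residual degrees of freedom) and Benjamini-Hochberg adjustment over 16672 genes at 0.05. The standard error is the absolute log2 fold change over the square root of F. Scripts were tested on simulated data. No replicates agreed within sampling noise (chi-square per degree of freedom 2.31 to 16.2). Deviations of same-numbered control and TACI short libraries correlated at r = 0.434, 0.213 and 0.177, but control 3 with TACI short 2 (0.232) and control 2 with TACI short 3 (0.194) did so as well, so replicates 2 and 3 are not told apart; other groups did not pair, and no label ties the numbers. The lowest group totals were 174 counts (CD69, TACI long), 197 (CD80, control) and 201 (CD44, control).

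The 9 genes, the lists and the alternatives (relative log expression, upper-quartile or no factors, DESeq2 1.42.0, limma-voom 3.58.1, other filters, the groups alone, a replicate block, left-out libraries) were chosen with earlier results of these data known. Named in the text are the 9 genes, TNFRSF13B, up to 4 called genes of lowest adjusted p and the highest called gene of each list, the 3 nearest genes and the highest marker of each other cell type. C1QB, C1QC and S100A8 are named as defining markers without a count, and MS4A1, CD79A and PAX5 as examples of the B-cell markers. CD40LG, CD28, CTLA4, S1PR1, TIMMDC1, ITGAL, ICAM5, CCL22, CCL17, CD1C, CD1A, FSCN1, CD163, CD33, TYROBP, FCER1G, CD3D, CD2, CLEC9A, XCR1, KRT18, COL1A1, COL1A2, DCN and genes whose values are given for the other line were added after their values were seen. The motifs were picked after the results were known.

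The lists, in which a few counted genes are not reported here by name, were: costimulation (ICOSLG, CD274, PDCD1LG2, CD276, VTCN1, VSIR, HHLA2, BTLA, TNFRSF14, TNFSF4, TNFSF9, CD70, LGALS9, PVR, NECTIN2, CD24, CD40LG); adhesion (ICAM2, ICAM3, ICAM4, ICAM5, ITGAL, ITGB2, CD48, VCAM1, CD47, F11R, CD99, ALCAM, SELPLG, SPN, L1CAM); activation markers (IL2RA, TFRC, FCER2, FAS, CD38, TNFRSF8, TNFRSF9, SLAMF1, CD84, SEMA7A, CD72, IL21R, SLC3A2, BSG, ENTPD1, NT5E, CLEC2B, CLEC2D, CD55, CD59); tetraspanins (CD9, CD37, CD53, CD63, CD81, CD151, TSPAN2, TSPAN3, TSPAN4, TSPAN5, TSPAN6, TSPAN7, TSPAN9, TSPAN12, TSPAN13, TSPAN14, TSPAN15, TSPAN17, TSPAN18, TSPAN31, TSPAN32, TSPAN33); partners and regulators (MARCHF1, MARCHF8, S1PR1, S1PR2, S1PR4, KLF2, CD74, HAS1, HAS2, HAS3, HMMR, EZR, MSN, RDX, NF2, ESRP1, ESRP2, HYAL2, TRAF1, TRAF2, TRAF3, TRAF5, TRAF6); and transcription factors (NFKB1, NFKB2, RELA, RELB, REL, BCL3, EGR1, EGR2, EGR3, FOS, FOSB, JUN, JUNB, JUND, SPI1, IRF1, IRF4, IRF8, BATF, STAT3, SP1, CEBPB).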

Additional observations from a re-analysis of the deposited data

Results flagged for a closer look

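Of the 9 genes, 8 differed between the TACI lines by the test of the difference itself, where 68.8% of all genes did. TACI short was above TACI long on the log2 scale by 4.49 for CD69, 4.004 for CD80, 2.77 for ICAM1, 1.91 for CD58, 1.46 for CD40, 0.80 for CD83 and 0.13 for CD82, and CD86 gave -0.28. CD83 is the one called in opposite directions against control, and the CD82 difference rests on the setting, as given with its values.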

How the results depend on the processing

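The counts of called members, of called list genes and of all called genes stayed within 1.5 times their value under every alternative run, also with the replicate number as a block, which gave 6, 7 and 8 called members in TACI long against control, TACI short against control and TACI short against TACI long and changed no member's call. In all, 3 values of members changed sign: CD44 in TACI short gave -0.88 against control and -1.39 against TACI long without TACI short replicates 2 and 3, and CD86 in TACI short against control gave -0.021 without TACI short replicate 1; the cause was not tested. CD44, CD82, CD86 and ICAM1 crossed the threshold in 1 comparison or more, as given with each. Among list genes, CD81 (higher in TACI short than in TACI long by 0.11) lost its call in 8 alternatives, ITGB2 in 8 and TFRC in TACI short against TACI long with upper-quartile factors or library totals. Fits without TACI short replicates 2 and 3 assume that the lone library varies like the other groups. Depth limits most CD69 in TACI long and CD80, CD58 and CD44 outside TACI short, where group totals were 174 to 344 counts; the wide error of CD44 goes with the split within TACI short (38, 463 and 474 counts).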
